A study of Naumovozyma castellii with 10 samples.

Results

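Small RNA reads from 3 classes of nuclear structural RNA were examined in the budding yeast Naumovozyma castellii: small nucleolar RNAs (snoRNAs), small nuclear RNAs (snRNAs) and ribosomal RNAs (rRNAs). The members were all annotated intervals of these types on the nuclear chromosomes, with each interval and strand counted once. This gave 37 snoRNAs, 3 snRNAs and 10 rRNA intervals, or 50 of the 8407 annotated features. Small RNA was sequenced from 5 groups of 2 libraries, which the labels call biological replicates. These were wild type (WT, strain YAM2478), upf1 (YAM2890, upf1::kanMX6), dcr1 upf1 (YAM2943), WT treated with cycloheximide (WT CHX) and dcr1 treated likewise (dcr1 CHX, YAM2795). All strains carried MATalpha, ura3-1 and ho. Cells came from cultures in YPD, a rich medium, kept at 25 °C until the OD600 reached 0.5. The treated ones received cycloheximide at 100 µg/mL for 15 min. Each genotype was represented by 1 strain, and a dcr1 strain without either cycloheximide or the upf1 mutation was not analysed here. RNA below 80 nt was purified on gels before library construction, so reads from longer annotated RNAs stand for fragments of them.

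snoRNAs are nucleolar guide RNAs. Most of them direct methylation or pseudouridylation of ribosomal RNA, and a few take part in cutting the rRNA precursor. In Saccharomyces cerevisiae, box C/D snoRNAs, which guide methylation, are as a rule shorter than box H/ACA snoRNAs, which guide pseudouridylation and fold into hairpins. snRNAs are the RNA cores of the spliceosome. Dicer (Dcr1) is the RNase III enzyme that cuts double-stranded RNA into small interfering RNAs, a pathway that N. castellii retains and S. cerevisiae has lost. Upf1 is the helicase of nonsense-mediated decay, the cytoplasmic pathway that degrades RNAs on which translation ends prematurely, and cycloheximide blocks translation elongation. The files name the snoRNAs and snRNAs by identifier only, so they are described by chromosome, position and length, with no box class.

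Values are read densities, meaning reads per nucleotide of the annotated interval, scaled by the authors to a Schizosaccharomyces pombe RNA spike-in. The snoRNAs held 3531 to 8529 reads per library and the snRNAs 79 to 137. Reads of the snoRNAs were 0.109 to 0.219% of all feature reads in the 6 libraries with Dicer, and 2.73 to 5.20% in the 4 without it. Every snoRNA had reads in every library, except in dcr1 upf1 replicate 1, where 35 of 37 did. Between replicates of a group, Pearson's r of log2 density across snoRNAs was 0.957 to 0.988 (n = 35 to 37 snoRNAs, which are not independent replicates). Changes are log2 ratios of density plus a pseudocount of 0.00145, tested with limma at an adjusted p of 0.05 over all features.

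All 10 nuclear rRNA intervals were listed at 0 in all 10 libraries. They comprise RDN5, RDN18, RDN58 and RDN25, the genes of the ribosomal RNAs, each in 2 copies of equal length on chromosome 3 between positions 572204 and 587976. The remaining 2 are intervals of 154 nt inside RDN58. The copies lie 8276 nt apart. The 2 annotated copies of the signal recognition particle RNA were also listed at 0, as were 50 of 304 tRNAs. Among features of other types, 40 of 5600 mRNAs were at 0 in every library. The 2 mitochondrial rRNAs together had 1665 to 9405 reads per library. How reads that map to several places were treated is not given in the sources used here. The listed 0 is therefore no measure of rRNA fragments, and no change between groups can be given for the rRNA intervals.

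A few short snoRNAs carried a large part of the summed snoRNA density. The 5 densest snoRNAs of each library made up 47.7 to 66.9% of its summed snoRNA density. Averaged over all libraries, the densest was an 80-nt snoRNA on chromosome 1 (2503086 to 2503165, plus strand) at a density of 4.54 reads per nucleotide. It was followed by a 97-nt snoRNA on chromosome 8 at 4.17 and a 92-nt snoRNA on chromosome 1 at 3.84. Next came a 104-nt snoRNA on chromosome 7 at 3.03 and an 84-nt snoRNA on chromosome 3 at 2.75. The sparsest was a 355-nt snoRNA on chromosome 3 at 0.0136. Across the 37 snoRNAs, Spearman's rho between length and mean density was −0.78. All 5 of the densest were below 150 nt, a length chosen after the values were seen that divides the snoRNAs into 20 short (79 to 125 nt) and 17 long (150 to 355 nt) ones.

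**Figure D1:**
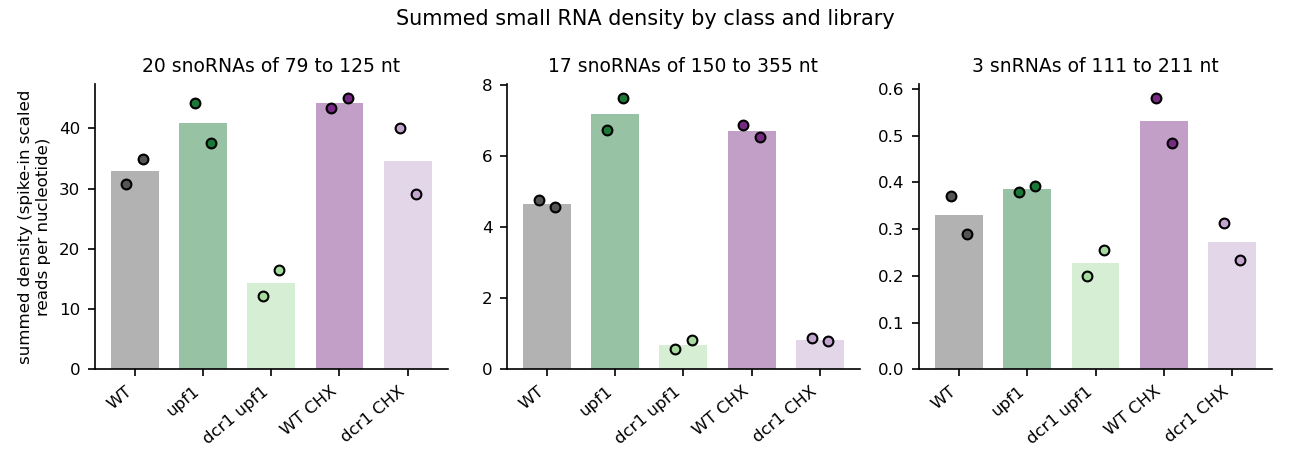
Summed density (spike-in scaled reads per nucleotide) of the short snoRNAs, the long snoRNAs and the snRNAs in each group; points are libraries and bars group means, with a separate axis per panel. The long snoRNAs sum to 4.55 to 7.62 in the 6 libraries with Dicer and to 0.571 to 0.866 in the 4 without it.

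Loss of Dicer in upf1 cells lowered most snoRNA signals. The summed snoRNA density was 50.9 and 45.1 in upf1 but 12.7 and 17.4 in dcr1 upf1. Both dcr1 upf1 libraries lay below both upf1 libraries, and below the 8 libraries of all other groups. The ratio of means was 0.313 ± 0.060 (SD from the spread of both groups, n = 2 libraries each; exact permutation p = 0.333, the smallest that 2 against 2 can give). Of the 37 snoRNAs, 23 fell and 0 rose in limma, with a median log2 change of −1.58. Over all 7727 features tested, 83.9% fell and 0.285% rose, with a median of −3.13. The share of snoRNAs that fell was below that background. Both dcr1 upf1 libraries lay below both upf1 libraries for 26 snoRNAs and above them for 3, against 90.0% and 1.18% of all features. No snoRNA rose at an unadjusted p of 0.05 either, and limma-voom on recovered reads called 0 as well. Among all 40 snoRNAs and snRNAs tested, however, 3 were called higher without upf1 replicate 1, 2 without dcr1 upf1 replicate 1, and 1 when libraries were scaled to summed nuclear tRNA density.

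Under cycloheximide the summed density differed less between cells with and without Dicer. The WT CHX libraries were at 50.3 and 51.6 and the dcr1 CHX libraries at 41.0 and 29.8. Both dcr1 CHX libraries lay below both WT CHX libraries, with a ratio of 0.695 ± 0.127 (exact permutation p = 0.333). The ratios were also taken without 4 short snoRNAs, those with the largest rises in dcr1 CHX over dcr1 upf1 given below. Picking them by that rise favours closer ratios, so this does not show where the difference lay. Without these 4 the ratio was 0.455 ± 0.089 under cycloheximide and 0.372 ± 0.066 in the upf1 comparison. In limma, 20 of 37 snoRNAs fell and 0 rose, again with 0 rises at an unadjusted p of 0.05 and 0 by limma-voom. Of the 40 snoRNAs and snRNAs, 2 were called higher without dcr1 CHX replicate 2, 1 with the pseudocount 10 times smaller, and 1 when only the 4 libraries compared were fitted. The median log2 change was −1.01. Over all features, 87.1% fell and 0.608% rose, with a median of −3.06. The libraries did not overlap for 23 snoRNAs that were lower and 4 that were higher, against 91.1% and 1.51% of all features. There were 17 snoRNAs that fell in both Dicer comparisons, 6 that fell in the upf1 comparison alone, 3 that fell in the cycloheximide comparison alone, and 11 that fell in neither. The same split was not made over all features. These counts do not test the difference between the comparisons, which is given for single snoRNAs below.

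The largest fall was that of a 209-nt snoRNA on chromosome 10 (ENSRNA049639735, 415582 to 415790, plus strand). Its density was 1.24 and 1.44 in upf1 but 0 and 0.00334 in dcr1 upf1, from 343 and 442 reads against 0 and 2. The dcr1 upf1 mean was 0.125% of the upf1 mean, with an exact 95% Poisson interval of 0.0151 to 0.450% on the reads without Dicer, for counting error only. The log2 change was −8.99 (SE 0.47, adjusted p = 8.14e-08), a size that depends on the pseudocount. Under cycloheximide its density went from 1.53 and 1.33 with Dicer to 0.00506 and 0.00709 without, a log2 change of −7.58 (SE 0.47, adjusted p = 3.65e-07). With 1.03 and 0.831 in WT, it was thus a clear signal in all 6 libraries with Dicer and rested on at most 3 reads in each library without it. No long non-coding RNA is annotated on the opposite strand of this snoRNA.

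A 212-nt snoRNA on chromosome 9 (ENSRNA049639716, 564286 to 564497, minus strand) behaved alike. Its density was 0.878 and 0.855 in WT, 1.21 and 1.33 in upf1, and 1.13 and 1.04 in WT CHX. In dcr1 upf1 it was 0.00330 and 0.00822, and in dcr1 CHX it was 0.00998 and 0.00933. The 4 libraries without Dicer held 2 to 5 reads each, against 240 to 416 in those with it, and the groups did not overlap. The log2 changes were −7.56 (SE 0.30, adjusted p = 1.53e-08) in upf1 and −6.61 (SE 0.30, adjusted p = 6.85e-08) under cycloheximide. A 310-nt snoRNA on chromosome 4 (887585 to 887894) fell to 0.843% of its upf1 level, on 3 reads in both dcr1 upf1 libraries together (Poisson interval 0.174 to 2.46%). It kept 6.74% under cycloheximide. A 237-nt snoRNA on chromosome 2 (80305 to 80541) fell to 2.34% in the upf1 comparison, and a 183-nt snoRNA on chromosome 7 (114262 to 114444) fell to 2.18% there and to 3.93% under cycloheximide.

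Large falls were not limited to sparse or long snoRNAs. The 97-nt snoRNA of chromosome 8 (497706 to 497802, minus strand) had the second highest mean density of all. Its density was 5.74 and 6.07 in WT, 6.36 and 5.33 in upf1, and 9.24 and 7.62 in WT CHX. Among the dcr1 upf1 libraries it was 0.195 and 0.309, and among the dcr1 CHX libraries 0.409 and 0.392. All 4 libraries without Dicer lay far below the 6 with it, at 4.31% ± 1.23 of the upf1 mean and 4.75% ± 0.544 of the WT CHX mean (SD). The log2 changes were −4.56 (SE 0.24, adjusted p = 8.00e-08) and −4.38 (SE 0.24, adjusted p = 1.66e-07). Another 2 short snoRNAs stayed below 10% in both comparisons: the 104-nt one of chromosome 7, at 9.12 and 8.25%, and a 109-nt one of chromosome 1 (2249554 to 2249662), at 2.47 and 7.62%.

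**Figure D2:**
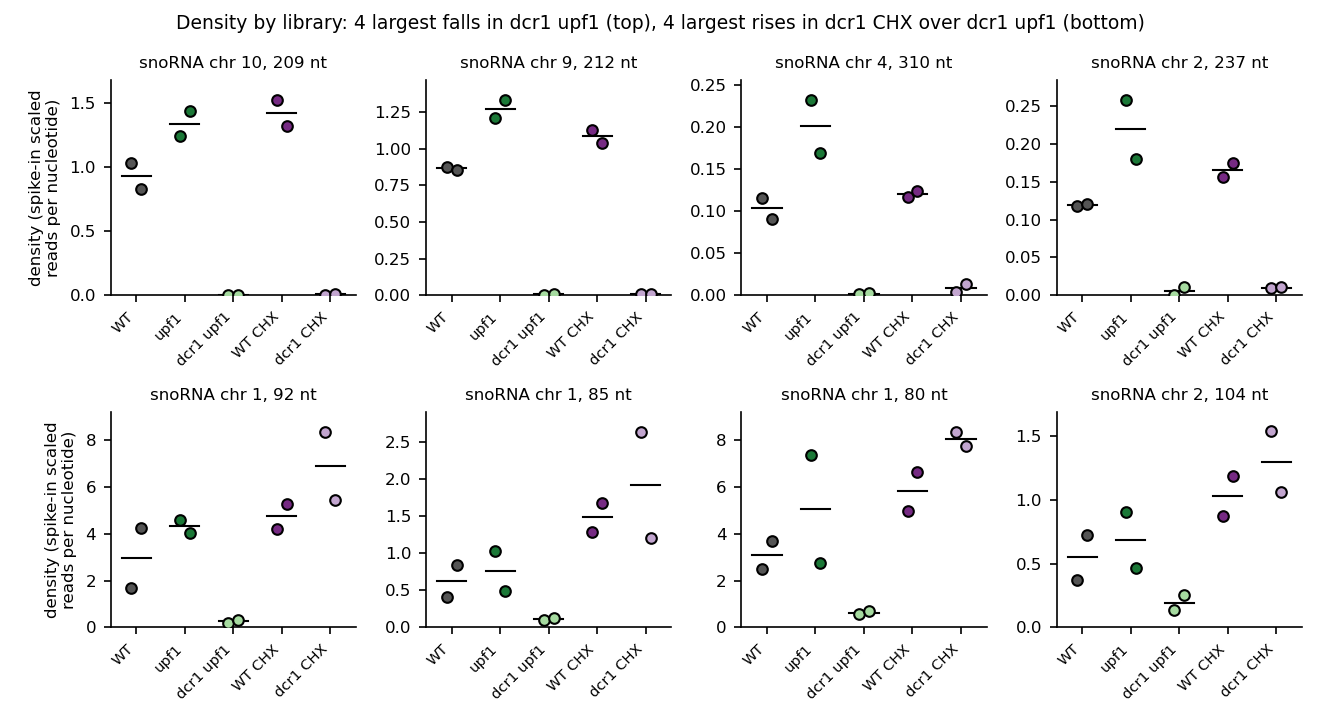
Density (spike-in scaled reads per nucleotide) by library for the 4 snoRNAs with the largest falls in dcr1 upf1 (top) and the 4 with the largest rises in dcr1 CHX over dcr1 upf1 (bottom); points are libraries, lines group means, and each panel has its own axis. The 209-nt snoRNA of chromosome 10 drops to at most 0.00709 in the 4 libraries without Dicer, while the 92-nt snoRNA of chromosome 1 drops in dcr1 upf1 but not in dcr1 CHX.

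The median long snoRNA lost more of its signal than the median short one. Of the 17 long snoRNAs, 12 fell in dcr1 upf1 and 14 in dcr1 CHX, and of the 20 short ones 11 and 6. Over all features 83.9 and 87.1% fell, so neither length class fell more often than features at large. The median long snoRNA kept 7.07% of its density in dcr1 upf1 and 10.1% in dcr1 CHX, against 56.3 and 99.6% for the median short snoRNA. In both comparisons, 7 long and 3 short snoRNAs kept under 10%. The summed density of the long snoRNAs was 6.72 and 7.62 in upf1, and 0.571 and 0.809 in dcr1 upf1. Under cycloheximide it was 6.87 and 6.53 with Dicer and 0.866 and 0.793 without. Their share of the summed snoRNA density was 11.5 to 16.9% in the 6 libraries with Dicer and 2.11 to 4.67% in the 4 without it, with no overlap. Across the 37 snoRNAs, Spearman's rho between length and log2 change was −0.35 in the upf1 comparison and −0.63 under cycloheximide. Length and density went together, as given above, and their parts in these values were not separated. Because the length limit was chosen after the values were seen, no test is given for it.

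Not every long snoRNA followed this pattern. The 355-nt snoRNA had 27 reads in both dcr1 upf1 libraries together and 9 in both upf1 libraries, and its log2 change of 0.45 (SE 0.64, adjusted p = 0.525) did not pass the test. A 184-nt snoRNA on chromosome 3 (282911 to 283094) kept 54.7% and 51.3%, and a 182-nt snoRNA on chromosome 2 (811454 to 811635) kept 46.8% and 48.6%; each fell in both comparisons. A 150-nt snoRNA on chromosome 2 kept 102 and 61.7% and was called in neither. The retained level of long snoRNAs thus ranged from 0.125 to 147% in the upf1 comparison.

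**Figure D3:**
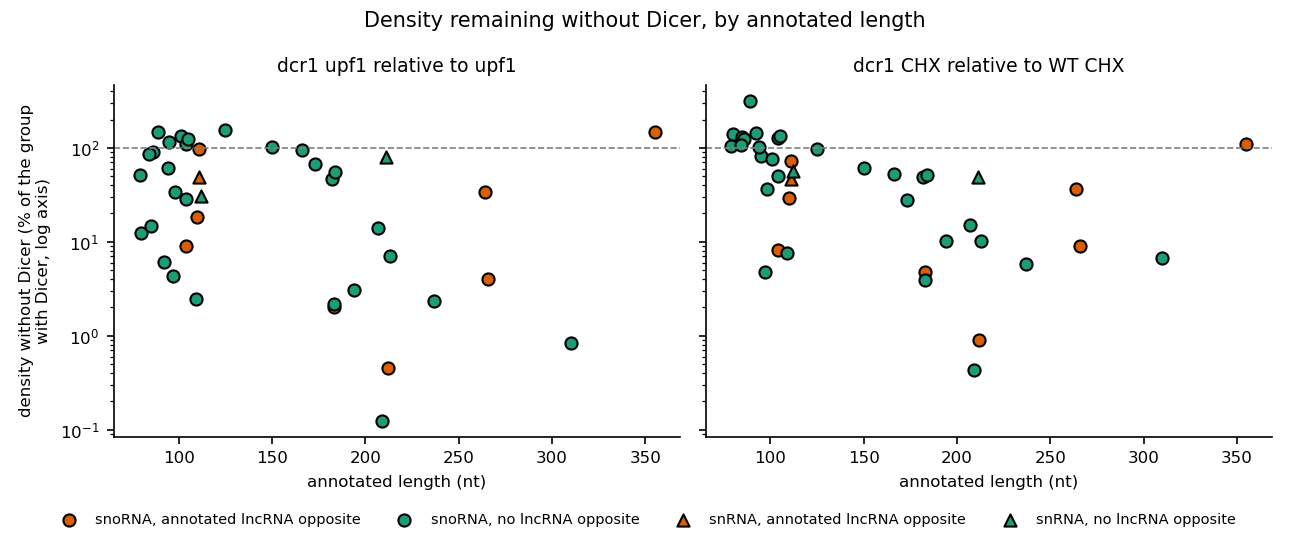
Density without Dicer as a percentage of the density in the matching group with Dicer (log axis) against annotated length in nt, for each snoRNA and snRNA; orange marks members with an annotated long non-coding RNA on the opposite strand, and the dashed line is no change. The 10 snoRNAs under 10% in both panels comprise 7 long and 3 short ones, and the short ones spread from 2.47 to 319% over both panels.

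A long non-coding RNA was annotated on the opposite strand of 8 snoRNAs, an arrangement in which both transcripts could pair. The classes are CUTs, XUTs and SUTs (cryptic unstable, Xrn1-sensitive and stable unannotated transcripts). Of these 8 snoRNAs, 5 fell in dcr1 upf1 and 6 in dcr1 CHX, against 18 and 14 of the 29 with none annotated there. These shares, too, lay below the 83.9 and 87.1% of all features that fell. In dcr1 upf1, small RNAs of 95.9% of XUTs, 91.3% of CUTs and 85.2% of SUTs fell. All 8 opposite transcripts were under 5% of upf1, whether or not their snoRNA fell. Any link between the falls of a pair was not tested. The 212-nt snoRNA of chromosome 9 lies opposite XUT0964, whose own small RNAs fell to 0.209% of upf1 in dcr1 upf1. A 183-nt snoRNA on chromosome 9 (381801 to 381983) lies opposite SUT143 and kept 2.0%, and SUT143 kept 0.308%. The 104-nt snoRNA of chromosome 7 lies opposite CUT1094, which kept 0.167%. A 266-nt snoRNA on chromosome 8 lies opposite SUT130 and kept 3.99%, and SUT130 kept 0.509%. In contrast to these pairs, a 111-nt snoRNA on chromosome 1 kept 98.1% while CUT0124 opposite it, with 15 reads in upf1 and 1 in dcr1 upf1, kept 3.33%. CUT0124 covers 37.84% of this snoRNA, against 78.85 to 100% in the pairs before it. The 355-nt snoRNA was at 147% while SUT074 opposite it, with 4 reads in upf1, had 0 in dcr1 upf1. A 264-nt snoRNA on chromosome 8 kept 34.1% while SUT131 opposite it, with 7 reads in upf1, had 0. SUT074 and SUT131 cover 100 and 85.61% of their snoRNAs. A 110-nt snoRNA on chromosome 1, wholly covered by XUT0046, kept 18.4%, while XUT0046 had 1034 reads in upf1 and 0 in dcr1 upf1. Among the 12 long snoRNAs with none annotated opposite, 9 fell in dcr1 upf1 and 10 in dcr1 CHX, and 6 and 4 kept under 10%. Of the 5 long ones with such a transcript, 3 kept under 10% in each comparison.

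Several short snoRNAs kept their small RNAs without Dicer. The 84-nt snoRNA of chromosome 3 (687790 to 687873) was at 3.56 and 2.94 in upf1, 2.06 and 3.57 in dcr1 upf1, 2.90 and 2.83 in WT CHX, while dcr1 CHX had 3.25 and 2.87. The libraries with and without Dicer overlapped in both settings, with log2 changes of −0.25 (SE 0.25, adjusted p = 0.37) and 0.09 (SE 0.25, adjusted p = 0.751). An 86-nt snoRNA on chromosome 2 (806183 to 806268) was at 2.66 and 2.61 in upf1 against 2.45 and 2.33 in dcr1 upf1, and at 1.81 and 1.84 in WT CHX against 2.35 and 2.17 in dcr1 CHX. Its changes, −0.14 (SE 0.15) and 0.30 (SE 0.15), did not pass the test. An 89-nt snoRNA on chromosome 4 had the highest retained level under cycloheximide, 319% ± 252, but its dcr1 CHX replicates were at 2.83 and 0.583 and it was not called.

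The Dicer-deficient groups differed from each other at a few short snoRNAs. These groups differ both in cycloheximide treatment and in the upf1 mutation, whose parts cannot be told apart. Of the snoRNAs, 7 were higher and 0 lower in dcr1 CHX than in dcr1 upf1, with a median log2 difference of 0.70. Over all features, 9.85% were higher and 0.246% lower, with a median of 0.41. The libraries did not overlap for 19 snoRNAs that were higher and 4 that were lower, against 44.6% and 4.76% of all features. At an unadjusted p of 0.05, 4 members were lower, and limma-voom called 0 lower. The summed nuclear tRNA density was also 2.42 times as high in dcr1 CHX. When libraries were scaled to it the count of members called higher went from 8 to 4 and that called lower from 0 to 10. On that scale 0.559% of all features were higher and 2.12% lower. Without dcr1 upf1 replicate 1, 5 members were called higher.

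The largest of these differences was at the 92-nt snoRNA of chromosome 1 (ENSRNA049639828, 133614 to 133705, minus strand). Its dcr1 upf1 libraries were at a density of 0.201 and 0.330, and its dcr1 CHX libraries at 8.35 and 5.45. In the libraries with Dicer it was 1.71 and 4.24 in WT, 4.58 and 4.05 in upf1, and 4.22 and 5.28 in WT CHX. Both dcr1 upf1 libraries were thus below every other library, and both dcr1 CHX libraries above. The dcr1 CHX to dcr1 upf1 difference was 4.70 on the log2 scale (SE 0.42, adjusted p = 0.00108).

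An 85-nt snoRNA on chromosome 1 (ENSRNA049639806, 2838684 to 2838768, minus strand) had a density of 0.0946 and 0.127 in dcr1 upf1 against 2.64 and 1.20 in dcr1 CHX, a log2 difference of 4.0 (SE 0.49, adjusted p = 0.00332). The 80-nt snoRNA of chromosome 1 was at 0.577 and 0.689 against 8.37 and 7.77, a log2 difference of 3.68 (SE 0.41, adjusted p = 0.00238). A 104-nt snoRNA on chromosome 2 (1173476 to 1173579) was at 0.134 and 0.251 against 1.54 and 1.06, a log2 difference of 2.79 (SE 0.45, adjusted p = 0.00919). In all of these the dcr1 CHX libraries lay above both dcr1 upf1 libraries, which was a condition for naming these snoRNAs. Their replicates with Dicer also differed. In WT the 80-, 85- and 104-nt snoRNAs were at 2.52 and 3.71, 0.405 and 0.847, and 0.373 and 0.725. In upf1 they were at 7.37 and 2.77, 1.03 and 0.488, and 0.902 and 0.464. Without the 4 snoRNAs the SD of the summed density went from 2.79 to 0.414 in WT and from 4.07 to 0.249 in upf1. The summed snoRNA density was 2.36 ± 0.620 times as high in dcr1 CHX as in dcr1 upf1 (exact permutation p = 0.333), and 0.978 times on the tRNA scale. Without the 4 snoRNAs just described the ratio was 1.25 ± 0.34, and the groups overlapped. Those 4 were picked for this same difference, so a smaller ratio without them follows from the choice and is no test.

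Whether Dicer loss acted differently in the 2 settings was tested as the difference of the log2 changes, cycloheximide comparison minus upf1 comparison. Among snoRNAs this difference was positive for 6 and negative for 1, where 18.4% of all features were positive and 5.29% negative. The 4 short snoRNAs just described made up 4 of the 6, with differences of 4.57 (SE 0.59, adjusted p = 0.000896), 3.32, 2.95 and 2.13 for the 92-, 80-, 85- and 104-nt snoRNAs. The change from dcr1 upf1 to dcr1 CHX, by which these 4 were picked, is part of this difference, so their calls here are no separate result. Each fell in dcr1 upf1 and did not pass the test in dcr1 CHX. The others were the 310-nt snoRNA of chromosome 4, at 2.15, and a 194-nt snoRNA of chromosome 2 (80809 to 81002), at 1.64, both of which fell in both settings but less under cycloheximide. A 104-nt snoRNA on chromosome 10 (174371 to 174474) had a difference of −1.10 (SE 0.34, adjusted p = 0.0471), a call that limma-voom did not make. It was at 0.451 and 0.457 in upf1 against 0.373 and 0.627 in dcr1 upf1, and at 1.10 and 1.01 in WT CHX against 0.554 and 0.494 in dcr1 CHX. The calls for the 92-, 80- and 194-nt snoRNAs held under every alternative run, while those for the other 4 were each lost on leaving out single libraries. The number of members called was 3 without WT CHX replicate 1, 4 without upf1 replicate 1 or WT CHX replicate 2, and 12 without dcr1 upf1 replicate 2.

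With Dicer present, loss of Upf1 raised some snoRNA signals and lowered others on the spike-in scale. The summed snoRNA density was 35.5 and 39.5 in WT, and 50.9 and 45.1 in upf1. Both upf1 libraries lay above both WT libraries, with a ratio of 1.28 ± 0.118 (exact permutation p = 0.333). Of 37 snoRNAs, 16 rose and 6 fell in limma, with a median log2 change of 0.49. Over all 7879 features, 57.7% rose and 0.622% fell, with a median of 1.20. Both upf1 libraries lay above both WT libraries for 19 snoRNAs and below them for 6, against 75.4% and 2.78% of all features. The rises depend on the spike-in scale: of the 40 snoRNAs and snRNAs tested, 16 were called higher on it, 3 when libraries were scaled to summed nuclear tRNA density, and 1 when they were scaled to the median mRNA density, where the snoRNA median was −0.87. On the tRNA scale 6 of 37 snoRNAs fell (16.2%), where 43.8% of all features rose and 1.14% fell. On the mRNA scale 23 of 37 snoRNAs fell (62.2%), where 26.8% of all features rose and 12% fell. The median change of all features moved from 1.20 to 0.90 and to 0.10 on those scales. Fitting all 10 libraries together on the spike-in scale gave 10 called higher.

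The largest rise in upf1 was that of the 182-nt snoRNA of chromosome 2 (ENSRNA049639933, minus strand). Its density was 0.0320 and 0.0502 in WT, and 0.191 and 0.243 in upf1, a log2 change of 2.38 (SE 0.26, adjusted p = 0.000189). In WT CHX it was 0.181 and 0.143, a log2 change of 1.97 (SE 0.26, adjusted p = 0.000577). Both groups lay above both WT libraries, which held 12 and 16 reads. The 109-nt snoRNA of chromosome 1 (ENSRNA049639779, minus strand) went from 0.343 and 0.157 in WT to 0.854 and 1.22 in upf1, a log2 change of 2.13 (SE 0.35, adjusted p = 0.00168). In WT CHX it was 0.881 and 0.776, a log2 change of 1.83 (SE 0.35, adjusted p = 0.00302). The 183-nt snoRNA of chromosome 9 opposite SUT143 rose by 2.09 in upf1 (SE 0.32, adjusted p = 0.00111), and a 266-nt snoRNA of chromosome 8 opposite SUT130 by 1.00 (SE 0.15, adjusted p = 0.000948), the latter going to −0.37 when scaled to median mRNA density.

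The snoRNAs that fell in upf1 were mostly short. The 101-nt snoRNA of chromosome 1 (2502841 to 2502941, plus strand) was at 1.58 and 1.35 in WT, and 0.457 and 0.310 in upf1, with no overlap. Its log2 change was −1.95 (SE 0.21, adjusted p = 0.000173), while in WT CHX it was at 1.23 and 1.51, overlapping WT. A 95-nt snoRNA of chromosome 1 (1970268 to 1970362) was at 1.82 and 1.75 in WT, and 0.995 and 0.408 in upf1, a log2 change of −1.48 (SE 0.38, adjusted p = 0.0128) whose call was lost without WT replicate 1. Of the remaining 4 that fell, 3 were short, with log2 changes of −0.72, −1.03 and −0.99.

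The snoRNA with the largest fall in upf1 was 166 nt long, on chromosome 1 (ENSRNA049639788, 432960 to 433125, plus strand), and lies inside the mRNA NCAS_0A02300 on the same strand. It had 58 and 40 reads in WT, and 8 and 2 in upf1, a log2 change of −3.01 (SE 0.57, adjusted p = 0.00331). The change was −4.0 without upf1 replicate 1, −2.02 without upf1 replicate 2 and −2.30 with the pseudocount 10 times larger. The mRNA was also called lower in upf1, at −1.41 (SE 0.24, adjusted p = 0.00197), but its listed reads include those of the snoRNA. Of its 71 and 47 reads in WT, 58 and 40 lay in the snoRNA, and of its 16 and 14 in upf1, 8 and 2 did. The mRNA call is therefore no separate result. The reads of the snoRNA were 14.3 to 85.1% of the reads listed for that mRNA, so the same reads were counted for both features. Likewise the 104-nt snoRNA of chromosome 10 lies inside EFB1, the gene of a translation elongation factor subunit, and its reads were 22.5 to 73.7% of those listed for EFB1. This snoRNA was at 0.946 and 0.907 in WT, and 0.451 and 0.457 in upf1, a log2 change of −1.03 (SE 0.11, adjusted p = 0.000178). EFB1, with the reads of the snoRNA included, was called higher in upf1, at 0.61 (SE 0.14, adjusted p = 0.00763).

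Cycloheximide raised many snoRNA signals in wild type on the spike-in scale. The summed density was 35.5 and 39.5 in WT, and 50.3 and 51.6 in WT CHX, so that the groups did not overlap. The ratio was 1.36 ± 0.085 (exact permutation p = 0.333). In limma 19 of 37 snoRNAs rose and 1 fell, with a median log2 change of 0.53. Over all features, 77.1% rose and 0.165% fell, with a median of 1.51. The groups did not overlap for 27 snoRNAs that were higher and 3 that were lower, against 88.4% and 0.558% of all features. As for upf1, the direction depends on the scale. The summed nuclear tRNA density was 2.27 times as high in WT CHX as in WT, and when libraries were scaled to it 0 of 40 snoRNAs and snRNAs rose and 13 fell; scaled to the median mRNA density, 0 rose and 29 fell. Over all features, 19.9% rose and 2.13% fell on the tRNA scale, and 9.18% rose and 17.9% fell on the mRNA scale. The median of all features was 0.49 and −0.19 on those scales. The upf1 and cycloheximide comparisons share the WT libraries, and 13 snoRNAs were called higher in both. Over all features 57.7% rose in upf1 and 77.1% in WT CHX, and the share that rose in both was not counted. Without WT CHX replicate 1, the members called higher in WT CHX went from 20 to 10, and with all 10 libraries fitted together to 11.

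Beside the 182- and 109-nt snoRNAs, the largest called rises in WT CHX were at short snoRNAs of chromosome 1. The 85-nt snoRNA was at 0.405 and 0.847 in WT, and 1.29 and 1.68 in WT CHX, a log2 change of 1.33 (SE 0.43, adjusted p = 0.0263), which was −0.64 when scaled to median mRNA density and lost its call without WT replicate 1 or either WT CHX replicate. The 111-nt snoRNA (1105878 to 1105988) had 16 and 11 reads in WT and 20 and 23 in WT CHX, a log2 change of 1.29 on the density scale (SE 0.23, adjusted p = 0.00208), which was −0.65 when scaled to median mRNA density. On the same mRNA scale the 109-nt snoRNA was at −0.14. The member that fell was a 79-nt snoRNA of chromosome 1 (ENSRNA049639819, 2502399 to 2502477), from 0.970 and 1.11 to 0.734 and 0.758, a log2 change of −0.47 (SE 0.16, adjusted p = 0.0321). This call was lost on leaving out any of the 4 WT and WT CHX libraries, and when all 10 libraries were fitted together.

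**Figure D4:**
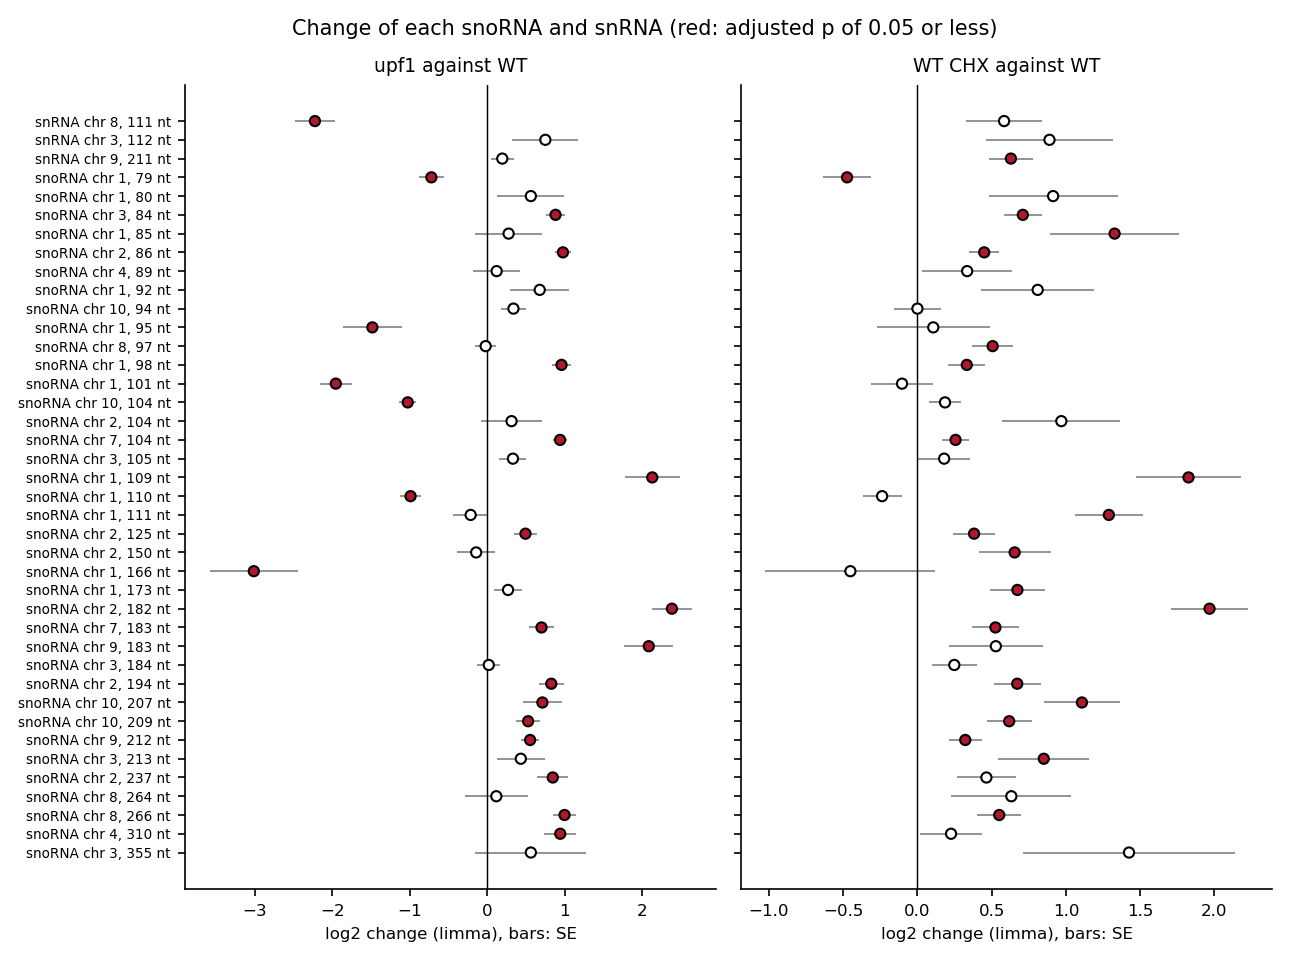
Log2 change in upf1 (left) and in WT CHX (right) relative to WT for the 3 snRNAs and for the 37 snoRNAs in order of length, on the spike-in scale; bars are standard errors and red points passed limma at an adjusted p of 0.05. Among the snoRNAs 16 rose and 6 fell on the left, and 19 rose and 1 fell on the right.

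On the spike-in scale, the 5 densest snoRNAs moved by less than 1 log2 unit in both comparisons. The 97-nt snoRNA of chromosome 8 changed by −0.02 in upf1 (SE 0.14, adjusted p = 0.914) and rose by 0.51 in WT CHX (SE 0.14, adjusted p = 0.0122), which was −0.69 on the tRNA scale and lost its call without WT replicate 1 or WT CHX replicate 1. The 104-nt snoRNA of chromosome 7 was at 3.53 and 3.37 in WT, 6.47 and 6.78 in upf1, and 4.22 and 4.03 in WT CHX. It rose by 0.94 in upf1 and by 0.26 in WT CHX, the former −0.43 on the mRNA scale and the latter −0.94 on the tRNA scale. The WT CHX call was also lost on leaving out either WT replicate or WT CHX replicate 1, and in limma-voom. The 84-nt snoRNA of chromosome 3 rose by 0.88 in upf1 and by 0.71 in WT CHX, the former −0.49 on the mRNA scale and the latter −0.48 on the tRNA scale. The 80- and 92-nt snoRNAs of chromosome 1 did not pass the test in either comparison.

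The 3 snRNAs gave far fewer reads than the snoRNAs. Their summed density was 0.370 and 0.290 in WT, 0.380 and 0.393 in upf1, and 0.581 and 0.484 in WT CHX. The dcr1 upf1 libraries were at 0.199 and 0.256, and the dcr1 CHX libraries at 0.314 and 0.233. The libraries without Dicer lay below those of their matching group, with ratios of 0.589 ± 0.085 to upf1 and 0.513 ± 0.104 to WT CHX (exact permutation p = 0.333 for each). Without the 211-nt snRNA, the densest, the ratio to upf1 was 0.312. Relative to WT, the ratio was 1.17 ± 0.170 for upf1 and 1.61 ± 0.288 for WT CHX, values that were 0.855 and 0.695 when scaled to summed tRNA density.

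The densest snRNA was 211 nt long, on chromosome 9 (132630 to 132840, plus strand). Its density was 0.184 and 0.192 in WT, 0.197 and 0.235 in upf1, 0.156 and 0.193 in dcr1 upf1, 0.303 and 0.281 in WT CHX, then 0.153 and 0.131 in dcr1 CHX. The WT CHX libraries were the highest and the dcr1 CHX libraries the lowest. It rose by 0.63 in WT CHX (SE 0.15, adjusted p = 0.00677), which was −0.56 on the tRNA scale, and changed by −1.03 in dcr1 CHX relative to WT CHX (SE 0.20, adjusted p = 0.000924). The change in dcr1 upf1, −0.31 (SE 0.20, adjusted p = 0.178), did not pass the test.

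The 112-nt snRNA of chromosome 3 (670477 to 670588, minus strand) was at 0.176 and 0.152 in upf1, and 0.0406 and 0.0591 in dcr1 upf1, a log2 change of −1.71 (SE 0.46, adjusted p = 0.00672). In WT it was at 0.152 and 0.0612, in WT CHX at 0.232 and 0.139, in dcr1 CHX at 0.137 and 0.0750. The dcr1 upf1 libraries lay well below the upf1 libraries, whereas dcr1 CHX and WT CHX came as close as 0.137 and 0.139, and that change, −0.82 (SE 0.46, adjusted p = 0.122), did not pass the test. The 111-nt snRNA of chromosome 8 (ENSRNA049639701, 255646 to 255756, plus strand) had 8 and 7 reads in WT, and 1 in each upf1 and each dcr1 upf1 library. The WT CHX libraries held 5 and 11 reads and the dcr1 CHX libraries 5 and 6. It was called lower in upf1 (adjusted p = 0.000272), a call that limma-voom on the reads did not make. It was also called lower in dcr1 upf1 than in upf1 (adjusted p = 0.0124), where all 4 libraries held 1 read each, lower in dcr1 CHX than in WT CHX, and higher in dcr1 CHX than in dcr1 upf1. Limma-voom made neither of the calls for loss of Dicer. At these counts no fold change is given for it.

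Small RNAs from mRNAs that encode the protein partners of these RNAs were counted beside those of all mRNAs. Gene names stand below for these small RNAs, not for mRNA or protein levels. In upf1, 2 of 4 box C/D core genes, 1 of 4 box H/ACA core genes, 6 of 14 snRNP genes, 7 of 15 genes of nuclear RNA processing and 1 of 7 RNA polymerase I genes rose, and 0 fell. Of all mRNAs tested, 54.7% rose and 0.224% fell. Small RNAs from SEN1, the gene of a helicase of transcription termination at snoRNA genes in S. cerevisiae, rose by 3.06 (SE 0.19, adjusted p = 1.24e-05). Those from SNU114, the gene of a spliceosomal GTPase, rose by 3.05 (SE 0.19, adjusted p = 1.15e-05). In WT CHX the counts that rose were 4, 3, 9, 13 and 7 in the same order, against 81.3% of all mRNAs. Among them small RNAs from NOP58, the gene of a box C/D core protein, rose by 2.71 (SE 0.43, adjusted p = 0.00134). Those from GAR1, the gene of a box H/ACA protein, rose by 2.01 (SE 0.37, adjusted p = 0.00259). These rises are on the spike-in scale: the share of all mRNAs that rose was 39.3 and 21.9% in upf1, and 21.6 and 10.1% in WT CHX, when libraries were scaled to summed tRNA density and to median mRNA density.

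Without Dicer, small RNAs from many genes of the same lists fell, as did those from most mRNAs. In dcr1 upf1, 2, 1, 10, 13 and 7 genes fell, with 13 snRNP genes tested, against 83.5% of all mRNAs. In dcr1 CHX, 4, 2, 9, 13 and 7 fell, against 89.1% of all mRNAs, and 0 rose in either comparison. SEN1 changed by −5.74 in dcr1 upf1 (SE 0.26, adjusted p = 3.76e-08). SNU13, which binds both box C/D snoRNAs and a spliceosomal snRNA in S. cerevisiae, changed by −4.10 in dcr1 upf1 (SE 0.23, adjusted p = 1.55e-07) and by −4.74 in dcr1 CHX (SE 0.23, adjusted p = 1.02e-07). RPA34, a subunit of RNA polymerase I, changed by −6.17 in dcr1 CHX (SE 0.35, adjusted p = 2.34e-07). The median log2 changes in dcr1 upf1 were −1.53 for box C/D, −0.62 for box H/ACA, −2.97 for snRNP, −2.19 for RNA processing and −1.53 for RNA polymerase I genes, and −2.64 for all mRNAs. In dcr1 CHX they were −2.27, −1.18, −3.71, −3.02 and −2.31, and −2.74 for all mRNAs.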

How the data were processed

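The deposited values are a coverage signal, the authors' read density per nucleotide of each annotated feature, scaled to S. pombe spike-in small RNAs per the labels' protocols. Bowtie, Trim Galore and, for S. pombe, the build ASM294v2 are listed per the submitters' processing notes. Not given in the sources used here are the N. castellii build, the read lengths counted and the treatment of multiply mapping reads; coordinates are those of the deposited file. Density times length gave whole reads times a library factor for 100% of entries (tolerance 0.001 reads), from which reads were recovered. Feature rows sharing chromosome, start, end and strand were kept once, and synthetic controls were left out.

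limma 3.58.1 (R 4.3.3) was run on log2(density + 0.00145), two-sided, with a variance trend and Benjamini-Hochberg adjustment over all features tested. For the pseudocount, the 10th percentile of the non-zero densities was taken in each library and the median of these values used; it also served as the minimum mean density for testing. Of the 50 members, 40 were tested, and the 10 rRNA intervals had 0 reads. The 6 libraries with Dicer were fitted for the upf1 and cycloheximide comparisons, and all 10 for the others. Sums were compared with exact two-sided permutation tests, which cannot go below 0.333. The script was tested on simulated data. A replicate number in the labels states no shared batch, and p-values measure the spread between libraries. Poisson intervals cover counting error only, and PCR reads without molecular identifiers are not independent molecules.

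Single members are named where they were among the 4 largest called rises or falls with non-overlapping groups in a comparison, were among the 5 densest snoRNAs, or were snRNAs. The 86-, 89-, 150-, 184- and 355-nt snoRNAs, those described for their retained level or opposite transcript, and the length limit of 150 nt were chosen after the values were seen. Genes of the protein lists were matched by symbol. Members and lists were chosen with earlier results of these data known. Sequences are not shown.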

Additional observations from a re-analysis of the deposited data

Results flagged for a closer look

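For 7 snoRNAs the effect of losing Dicer differed between the cycloheximide and the upf1 setting in limma's test of the difference itself. The values are log2 change in the cycloheximide comparison minus that in the upf1 comparison. They were 4.57, 3.32 and 2.95 for the 92-, 80- and 85-nt snoRNAs of chromosome 1, 2.13 for the 104-nt and 1.64 for the 194-nt snoRNA of chromosome 2, and 2.15 for the 310-nt snoRNA of chromosome 4. The 104-nt snoRNA of chromosome 10 had −1.10, a call that limma-voom did not make. Of the snoRNAs 16.2% were called positive and 2.7% negative, against 18.4 and 5.29% of all features. Which of these calls held under the alternative runs is given above. With the pseudocount 10 times larger 15 members passed this test, and with it 10 times smaller 4 did.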

How the results depend on the processing

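Counts below are of the 40 snoRNAs and snRNAs tested. The falls without Dicer, 25 in upf1 and 22 under cycloheximide, stayed within 1.5 times under every alternative run (23 to 25 and 20 to 23 with 1 library left out). Scaling to summed tRNA density gave 3 rises in upf1, 0 rises and 13 falls in WT CHX, 1 rise in dcr1 upf1, and 4 rises and 10 falls in dcr1 CHX against dcr1 upf1. Over all features, that scale gave 43.8% rises in upf1, 19.9% rises and 2.13% falls in WT CHX, and 0.442% rises in dcr1 upf1. For dcr1 CHX against dcr1 upf1 it gave 0.559% rises and 2.12% falls over all features. Scaling to median mRNA density gave 1 rise and 25 falls in upf1, and 0 and 29 in WT CHX. Over all features on that scale, 26.8% rose and 12% fell in upf1, and 9.18 and 17.9% in WT CHX. Fitting all 10 libraries gave 10 rises in upf1, and 11 rises and 0 falls in WT CHX. For dcr1 CHX against WT CHX, 1 rise was called with the pseudocount 10 times smaller and 1 with only the 4 libraries compared. The difference of the Dicer effects was called for 15 members with the pseudocount 10 times larger and 4 with it 10 times smaller.

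With 1 library left out, WT CHX had 10 to 17 rises and 0 to 1 falls, dcr1 upf1 0 to 3 rises (3 without upf1 replicate 1, 2 without dcr1 upf1 replicate 1), dcr1 CHX against WT CHX 0 to 2 rises (2 without dcr1 CHX replicate 2), dcr1 CHX against dcr1 upf1 5 to 12 rises and 0 to 1 falls, and the difference of the Dicer effects 3 to 12 calls.

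On the tRNA scale the snoRNA sum ratios were 0.953 (upf1), 0.594 (WT CHX), 0.551 (dcr1 CHX to WT CHX) and 0.978 (dcr1 CHX to dcr1 upf1), and those of the snRNAs 0.855, 0.695, 0.405 and 0.497. Without the densest snRNA, the snRNA ratio was 0.312 in dcr1 upf1 and 2.48 for dcr1 CHX to dcr1 upf1. Single members that turned sign in WT CHX were the 97-nt (−0.69 tRNA scale, −1.46 mRNA scale), chromosome 7 104-nt (−0.94, −1.71) and 84-nt (−0.48, −1.26) snoRNAs and the 211-nt snRNA (−0.56, −1.33). On the mRNA scale alone the 85-, 111- and 109-nt snoRNAs went to −0.64, −0.65 and −0.14 in WT CHX, and the 266-, chromosome 7 104- and 84-nt snoRNAs to −0.37, −0.43 and −0.49 in upf1. The cause was not tested.

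Same-numbered replicates did not deviate together (correlations from −0.031 to 0.020). With the replicate number as a block, the counts were 16 rises and 7 falls in upf1, 19 and 1 in WT CHX, 25 falls in dcr1 upf1, 22 in dcr1 CHX, and 6 calls for the difference of the Dicer effects.
Members with few reads, such as the snRNAs and the 355-nt snoRNA, limit what the depth can show.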

Other observations

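Some snoRNAs lie close together on the chromosome. The 79-, 101- and 80-nt snoRNAs of chromosome 1 follow each other on the plus strand with gaps of 363 and 144 nt, and differed in their values. In dcr1 upf1 the 80-nt snoRNA fell to 12.5% of its upf1 density and the 79-nt one to 51.8%, while the 101-nt one was at 133% ± 35.4 and did not pass the test. On chromosome 2, the 150- and 125-nt snoRNAs lie 124 nt apart on the plus strand, and neither passed the test in either Dicer comparison. The 237- and 194-nt snoRNAs of chromosome 2 lie 267 nt apart on opposite strands, and both fell in dcr1 upf1 and in dcr1 CHX. The RNase P RNA, an RNA enzyme outside the classes above, had a density ratio of 0.331 ± 0.037 in dcr1 upf1 to upf1 and 0.478 ± 0.076 in dcr1 CHX to WT CHX.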
